A study of Mus musculus with 28 samples.

Results

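The 10 genes described here encode the integrin subunits that receive collagen, fibronectin and other RGD-containing matrix proteins: the alpha subunits Itga1, Itga2, Itga10 and Itga11, which bind collagen, the alpha subunits Itga5, Itga8 and Itgav, which bind the RGD motif, and the beta subunits Itgb1, Itgb3 and Itgb5. They were taken by their symbols from the deposited raw count table, and all 10 were found among its 54429 genes. Their messenger RNA was followed in 28 polyA RNA-seq libraries of O9-1 cells, a mouse line of cranial neural crest cells, the embryonic population that gives rise to facial cartilage, bone and connective tissue. The 8 groups joined 4 culture states with 2 oxygen levels, 21% O2 (called normoxic, 4 libraries per group) and 0.5% O2 (called hypoxic, 3 libraries per group). Proliferating cultures received 15% FCS, 25 ng/ml bFGF and 5 ng/ml LIF. Osteoblast cultures spent 10 days in medium with 10% FCS, 0.1 µM dexamethasone and 100 ng/ml BMP-2. Chondrocyte cultures spent 3 days in osteoblast medium and then 7 days as micromass on matrigel-coated plastic with 5% FCS, 0.1 µM dexamethasone, 10 ng/ml TGF-beta3 and 50 ng/ml BMP-2. Smooth muscle cultures spent 3 days in medium with 10% FCS. All groups come from 1 cell line, and the culture states differ in medium, time and, for chondrocytes, in the matrix on the plastic, so that lineage and culture conditions cannot be told apart. The labels number the libraries of a group without saying whether they are separate cultures, so the p-values measure the spread between libraries, which may be technical.

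An integrin is a pair of 1 alpha and 1 beta subunit that spans the plasma membrane, holding a matrix protein outside the cell and, through talin, kindlin and other adaptors, the actin cytoskeleton inside. The collagen-binding alpha subunits carry an inserted I domain and pair with beta 1, as do alpha 5 and alpha 8, whereas alpha v pairs with several beta subunits, beta 3 and beta 5 among them. Alpha 5 beta 1 is the classical fibronectin receptor, alpha 8 beta 1 binds nephronectin and other RGD ligands, and alpha 10 and alpha 11 are known from cartilage and from fibroblasts of bone- and tooth-supporting tissue, respectively.

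The members lie on 8 mouse chromosomes in build mm10. Itga1 (chr13:114953096-115101964) and Itga2 (chr13:114833081-114932100) are neighbours on the minus strand of chromosome 13. The other collagen-binding genes are Itga10 (chr3:96645584-96664519, plus strand) and Itga11 (chr9:62677826-62783982, plus strand). The RGD-binding alpha genes are Itga5 (chr15:103344286-103366763, minus strand), Itga8 (chr2:12106632-12301922, minus strand) and Itgav (chr2:83724397-83806916, plus strand). The beta genes, all on the plus strand, are Itgb1 (chr8:128685654-128733200), Itgb3 (chr11:104608000-104670476) and Itgb5 (chr16:33829665-33949338). These spans cover exons, introns and UTRs of protein-coding genes, and a count sums the exons. Annotated genes overlap the spans of 5 members: Gm49395, Pelo and, on the opposite strand, Gm10734 at Itga1, Gm42957 at Itga10, Mir6963 at Itga5, Gm37701 and, on the opposite strand, E030013I19Rik at Itga8, and Gm13684 and Dnmt3l-ps1, both on the opposite strand, at Itgav. In 4 of these, all but Itga5, 1 of the genes overlaps the member's exons. The library kit marks strand, but the strand setting used in counting is not given in the sources used here, so the values of these 4 genes are uncertain to the extent that reads were shared.

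The sequence just upstream of the start site is shown for 4 members with contrasting patterns over the groups: Itga11, highest in chondrocyte cultures, Itga8, highest in normoxic osteoblast and smooth muscle cultures, Itga5, well detected in every library, and Itgb5, which was called higher in all 6 differentiation comparisons under the main scaling. Each run holds the 250 bases before the RefSeq start, 5′ to 3′ on the gene's own strand, from RefSeq on GRCm38.p6 (the assembly of mm10). That start is the same as in the spans above for Itgb5, but lies 29 bases inside the span for Itga11 and 28 and 22 bases upstream of it for Itga5 and Itga8. In each run capitals mark the GC box (GGGCGG or, on the other strand, CCGCCC).
Itga11: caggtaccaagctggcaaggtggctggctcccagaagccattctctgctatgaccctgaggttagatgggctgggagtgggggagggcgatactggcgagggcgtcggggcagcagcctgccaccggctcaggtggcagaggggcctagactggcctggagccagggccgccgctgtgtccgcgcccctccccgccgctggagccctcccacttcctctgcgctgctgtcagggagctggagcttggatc
Itga8: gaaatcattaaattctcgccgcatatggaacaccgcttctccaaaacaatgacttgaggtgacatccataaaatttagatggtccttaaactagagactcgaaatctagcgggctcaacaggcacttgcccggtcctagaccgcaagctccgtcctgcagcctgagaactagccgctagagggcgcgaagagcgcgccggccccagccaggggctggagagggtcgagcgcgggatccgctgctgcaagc
Itga5: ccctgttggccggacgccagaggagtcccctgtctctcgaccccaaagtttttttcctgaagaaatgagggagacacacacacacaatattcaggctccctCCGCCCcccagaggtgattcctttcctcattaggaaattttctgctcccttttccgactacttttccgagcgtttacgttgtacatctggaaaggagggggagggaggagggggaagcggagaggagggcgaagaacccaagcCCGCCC
Itgb5: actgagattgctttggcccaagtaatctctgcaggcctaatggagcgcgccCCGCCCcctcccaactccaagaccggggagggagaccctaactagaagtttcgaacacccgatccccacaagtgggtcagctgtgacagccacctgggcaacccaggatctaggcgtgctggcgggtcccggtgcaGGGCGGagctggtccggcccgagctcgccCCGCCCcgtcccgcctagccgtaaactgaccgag
The stretches lie at chr9:62677605-62677854 (plus strand), chr2:12301945-12302194 (minus strand), chr15:103366792-103367041 (minus strand) and chr16:33829415-33829664 (plus strand). Their GC content was 68.4% for Itga11, 56.4% for Itga8, 55.6% for Itga5 and 65.2% for Itgb5, against a median of 52.4% over all 32851 promoters of the RefSeq table. A promoter sequence was matched for 9 of the 10 members, all but Itgb3. Both strands were searched. The GC box was found 3 times in Itgb5, 2 times in Itga5 and 1 time in Itgb1, and 32.7% of all promoters hold it. The TEAD motif GGAATG was found in Itga10 and Itgb1, and 12.6% of all promoters hold it. None of the 9 windows held the hypoxia response core ACGTG (16.6% of all promoters), the AP-1 motif TGANTCA (6.75%), TATAAA (12.4%) or the CArG box (1.47%). No match of 1 motif overlapped a match of another.

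Libraries held 19.87 to 64.69 M (mega) counts, with a median of 26.8 M. The 3 hypoxic smooth muscle libraries stood apart from all others. Mitochondrial ribosomal RNA took 11.62 to 13.31% of their counts, against 0.02522 to 0.08888% elsewhere, and their scaling factors were 0.505 to 0.533, against 0.90 to 1.29 elsewhere. The 10 members together took 0.0463 to 0.04862% of their counts, against 0.1341 to 0.5951% in the other 25 libraries. Marker lists were read against the labels as summed CPM (counts per megacount of the library size after the scaling over all 28 libraries described below). Smooth muscle markers summed to 3580.0 to 4044 in normoxic smooth muscle but to 95.1 to 119 in hypoxic smooth muscle, beside 94.4 to 103 and 191 to 195 in normoxic and hypoxic proliferating cultures. The hypoxic smooth muscle libraries therefore did not carry the markers of their label above the proliferating level. Chondrocyte markers summed to 7454 to 15270.0 in normoxic and 5504 to 5826 in hypoxic chondrocyte cultures. Osteoblast markers summed to 5723 to 9428 in normoxic and 8779.6 to 11019 in hypoxic osteoblast cultures, and to 36092 to 44848 and 43333 to 50419.9 in the chondrocyte cultures, which were higher. The same list summed to 3738 to 5955 in normoxic smooth muscle, overlapping the normoxic osteoblast libraries. In normoxic and hypoxic proliferating cultures it summed to 1451 to 1639 and 2376 to 2623. Smooth muscle markers were also present in the other lineages, at 3648 to 5177 in normoxic and 2213 to 2494 in hypoxic osteoblast cultures and 2078 to 2535 and 1894 to 2275 in the chondrocyte cultures. Normoxic osteoblast replicate 4 also stood apart from the other 3 libraries of its group: chondrocyte markers summed to 3008 against 1816 to 1851, osteoblast markers to 9428 against 5723 to 5745 and smooth muscle markers to 5177 against 3648 to 3818. Its level of Col2a1, the cartilage collagen, was 776 CPM against 35.6 to 43.6 CPM. Without this library all 10 members were still called higher in normoxic osteoblasts than in proliferating cultures, with changes within 1.5-fold of those with it, among them 1.04 for Itga5 and 3.65 for Itgb3 on the log2 scale. The chondrocyte list holds Col2a1 and Col11a1 and the osteoblast list Ibsp and Col1a1, which are also ligands described further on. Of 8 neural crest markers, 5 were at 1 CPM or more in proliferating cultures at both oxygen levels, and the list summed to 3223 to 3476 under normoxia and 3940.4 to 4110.4 under hypoxia, while the defining genes Sox10 and Foxd3 were at 0. The neural crest list summed to 3294 to 4045 in hypoxic and 2943 to 3104 in normoxic smooth muscle. It summed to 2103 to 3004 in normoxic and 1820 to 1932 in hypoxic osteoblast cultures. Chondrocyte cultures were lowest, at 738 to 954 under normoxia and 771 to 878 under hypoxia. Blood and platelet markers summed to 51.6 to 54.2 in hypoxic smooth muscle, with Gp1bb, Pf4 and Itgam at 0, and to at most 15.1 in the other groups. Adipocyte markers reached 47.3 to 60.4 in normoxic smooth muscle, where 1 of the 5 genes was at 1 CPM or more and Cidec was at 0. Endothelial markers reached at most 7.76 and epithelial markers at most 11.6. The part of these lists in the integrin values was not tested. In bulk cultures, fewer cells of a type and less RNA per cell cannot be told apart.

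Levels are given as CPM scaled over all 28 libraries by the trimmed mean of M-values (TMM), in the order of the libraries' numbers. Each change is given on the log2 scale beside its standard error (SE), and an adjusted p is from edgeR's quasi-likelihood test with Benjamini-Hochberg adjustment over all genes tested in that comparison. A gene was called where the adjusted p was under 0.05.

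**Figure D1:**
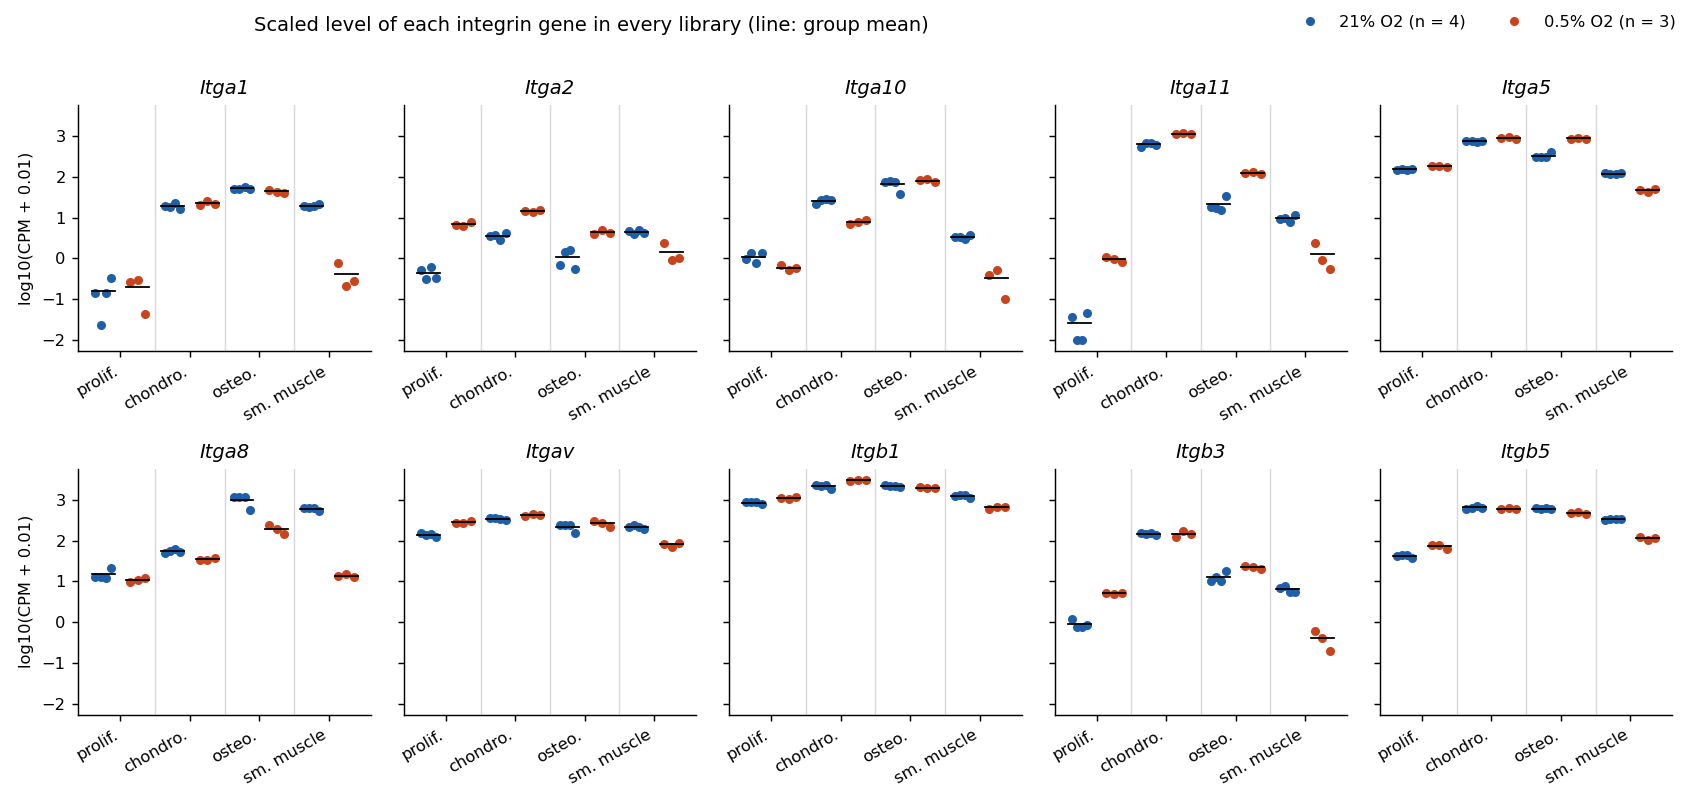
Level of each of the 10 integrin subunits in every library, as log10 of CPM plus 0.01, with 1 panel per gene, points for libraries and a line for the mean of each of the 8 groups (4 normoxic and 3 hypoxic libraries). Itga11 spans from 2 reads in all normoxic proliferating libraries to 1104 CPM or more in hypoxic chondrocyte cultures, whereas Itgb1 stays between 590.8 and 3070 CPM in all 28 libraries.

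Most of these receptors were higher in differentiated than in proliferating cultures. In normoxic chondrocyte cultures all 10 members were called higher than in proliferating cultures, among 37.7% of all tested genes called higher (37.2% were called lower), and their median change was 3.58 (log2) against -0.0029 over all genes. Normoxic osteoblast cultures also had all 10 higher, beside 40.9% of all genes (37.8% lower), with a median of 3.92 against 0.07. In normoxic smooth muscle 9 were higher and 1, Itga5, was lower, beside 40.8% and 38.9% of all genes. The members' median there was 2.98 against 0.03. At 0.5% O2, chondrocyte cultures again had all 10 higher than hypoxic proliferating cultures (34.9% of all genes, with 34.6% lower), with a median of 2.67 against -0.02. In hypoxic osteoblast cultures 8 were higher and 1, Itga2, was lower, beside 36.2% and 35.1% of all genes, and Itgav was not called. The median was 2.48 against 0.001. Hypoxic smooth muscle differed: of 9 members that passed the filter on low counts (all but Itga1), 2 were higher (Itga8 and Itgb5) and 5 lower, beside 33.8% and 36.2% of all genes, with a median of -0.74 against -0.07. Scaling by library size alone changed the share of all calls that were higher from 50.3% to 34.7% in normoxic chondrocytes, from 50.2% to 31.8% in hypoxic chondrocytes, from 50.8% to 38.2% in hypoxic osteoblasts and from 48.3% to 15% in hypoxic smooth muscle. The medians of all genes were then -0.35, -0.35, -0.23 and -1.35, and 0.11 in normoxic smooth muscle, and the hypoxic smooth muscle change of Itgb3 was -4.75. None of the 9 members was then called higher there and 8 were called lower, Itga8 and Itgb5 among them.

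**Figure D2:**
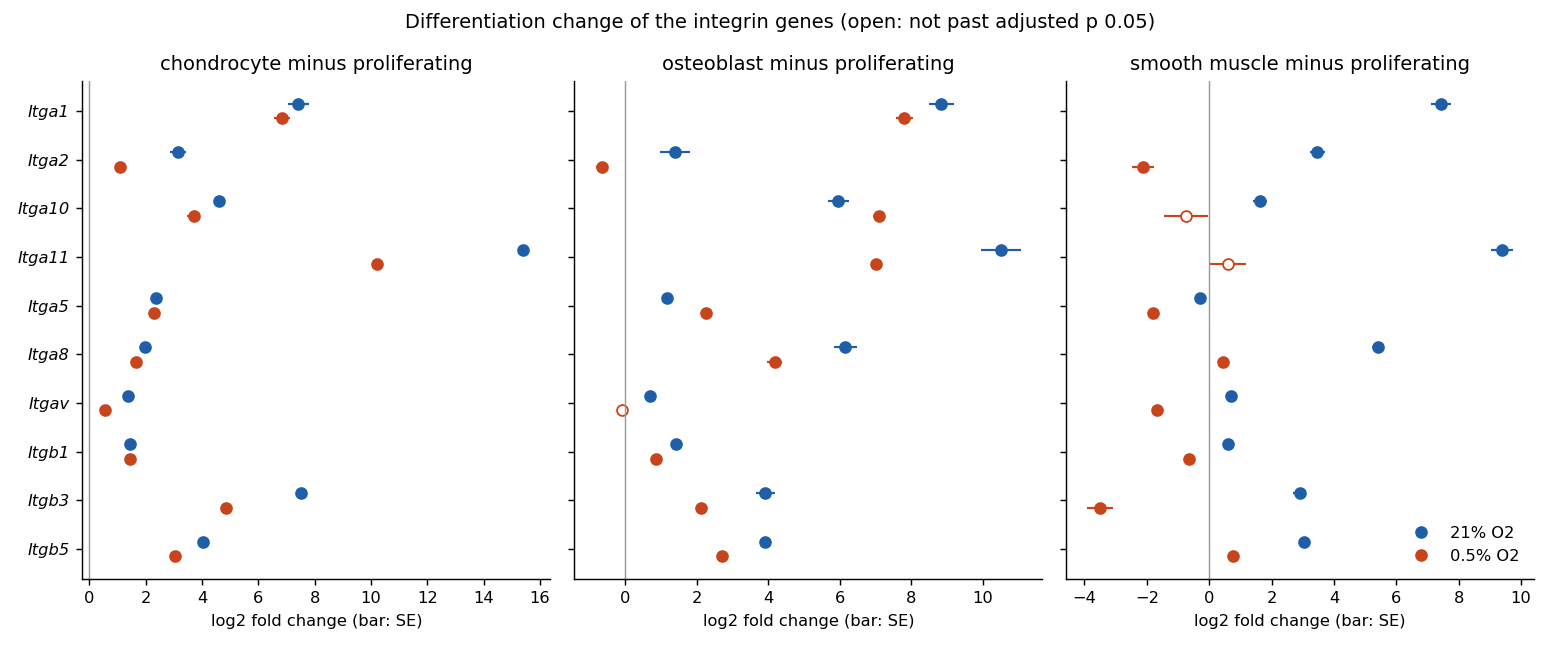
Log2 fold change of each integrin subunit from the proliferating cultures of the same oxygen level, with 1 panel per lineage, bars of ± SE, and open points where the test did not call the gene; each panel has its own horizontal scale. Itga11 has the largest change in chondrocyte cultures at both oxygen levels, its normoxic values rest on 2 reads in the proliferating group and are not fold estimates, and in smooth muscle the 2 oxygen levels separate for every member tested in both.

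Among the collagen receptors, Itga11 encodes the alpha 11 subunit, a receptor for fibrillar collagens. In normoxic proliferating cultures its levels were 0.0269, 0, 0 and 0.035 CPM, which is 2 reads in the 4 libraries together. Normoxic chondrocyte libraries held 557, 678, 698 and 613 CPM, normoxic osteoblast libraries 18.8, 17.5, 15.1 and 34.8 CPM and normoxic smooth muscle libraries 9.5, 9.91, 8.07 and 11.5 CPM. The gene was near 0 before differentiation and the chondrocyte libraries stood above all other normoxic libraries without overlap. Against the 2 reads, the ratio of scaled counts was 53716 in chondrocyte cultures (95% exact counting interval 14870 to 443556), 1860 in osteoblast cultures (514 to 15368) and 828 in smooth muscle cultures (229 to 6842). These intervals cover counting error only, and the fitted log2 values of these comparisons are not estimates of size. The adjusted p was 2.38e-13 for chondrocytes, 1.25e-07 for osteoblasts and 1.13e-12 for smooth muscle. Under 0.5% O2 proliferating libraries held 1.07, 0.97 and 0.787 CPM and chondrocyte libraries 1127, 1192 and 1104 CPM, the highest levels of this gene. Hypoxic osteoblast libraries held 123, 129 and 119 CPM and hypoxic smooth muscle libraries 2.4, 0.898 and 0.556 CPM, the latter overlapping the hypoxic proliferating libraries. From hypoxic proliferating cultures Itga11 rose by 10.22 ± 0.11 (SE, adjusted p = 1.33e-15) in chondrocytes and by 7.02 ± 0.12 (SE, adjusted p = 4.14e-16) in osteoblasts. In hypoxic smooth muscle the change was 0.60 ± 0.58 (SE, adjusted p = 0.375), not called, and it was -0.67 (adjusted p = 0.303) when libraries were scaled by size alone and -0.26 (adjusted p = 0.693) without hypoxic smooth muscle replicate 1.

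Itga10 encodes alpha 10, the collagen receptor known from chondrocytes. Its highest levels were not in the chondrocyte cultures. Normoxic osteoblast libraries held 75.6, 81.1, 77.01 and 39.1 CPM and hypoxic osteoblast libraries 82.2, 87.2 and 73.4 CPM. Normoxic chondrocyte libraries held 21.7, 27.8, 28.2 and 26.7 CPM and hypoxic chondrocyte libraries 7.02, 7.8 and 8.58 CPM. Every osteoblast library exceeded every chondrocyte library. The remaining groups were low, with 0.942, 1.36, 0.762 and 1.37 CPM in normoxic proliferating, 3.37, 3.28, 2.96 and 3.7 CPM in normoxic smooth muscle, 0.683, 0.503 and 0.582 CPM in hypoxic proliferating and 0.375, 0.499 and 0.0927 CPM in hypoxic smooth muscle libraries, where 11 reads were counted in all. The rise from proliferating cultures was 5.96 ± 0.29 (SE, adjusted p = 8.02e-08) in normoxic osteoblasts, 4.60 ± 0.17 (SE, adjusted p = 2.86e-10) in normoxic chondrocytes and 1.62 ± 0.22 (SE, adjusted p = 5.6e-06) in normoxic smooth muscle. From hypoxic proliferating cultures it was 7.08 ± 0.14 (SE, adjusted p = 2.52e-15) in osteoblasts and 3.70 ± 0.22 (SE, adjusted p = 5.94e-09) in chondrocytes. In hypoxic smooth muscle the change of -0.74 ± 0.70 (SE, adjusted p = 0.366) was not called, and scaling by library size alone gave -1.996 (adjusted p = 0.0175).

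Itga1, for the alpha 1 subunit that favours network collagens such as collagen IV, was nearly silent in proliferating cultures, with 0.0135 to 0.315 CPM under normoxia (19 reads in 4 libraries) and 0.0342 to 0.287 CPM under hypoxia. It was highest in normoxic osteoblast cultures at 50.4 to 57.6 CPM, followed without overlap by hypoxic osteoblast cultures at 41.1 to 49.3 CPM. Hypoxic chondrocyte (20.8 to 25.7 CPM), normoxic smooth muscle (17.9 to 22.3 CPM) and normoxic chondrocyte libraries (16.5 to 23.3 CPM) overlapped in level. In hypoxic smooth muscle Itga1 stood at 0.2 to 0.75 CPM, overlapping the proliferating libraries, and was too low for a test against them. Its normoxic rise was 8.84 ± 0.35 (SE, adjusted p = 2.03e-08) in osteoblasts, 7.44 ± 0.31 (SE, adjusted p = 6e-11) in smooth muscle and 7.42 ± 0.37 (SE, adjusted p = 9.75e-09) in chondrocytes. These sizes rest on few reads: without normoxic proliferating replicate 2 they were 8.13, 6.71 and 6.71, and without replicate 4 they were 9.49, 8.08 and 8.08. Under hypoxia the rise was 7.80 ± 0.24 (SE, adjusted p = 2.64e-13) in osteoblasts and 6.84 ± 0.28 (SE, adjusted p = 2.51e-10) in chondrocytes.

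Itga2, for the alpha 2 subunit that binds fibrillar collagen I, reached no more than 15.6 CPM in any library. Hypoxic chondrocyte libraries were highest, at 14.8, 14.1 and 15.6 CPM, and hypoxic proliferating libraries next, at 6.57, 6.14 and 7.94 CPM. Normoxic proliferating libraries were lowest, at 0.511, 0.311, 0.597 and 0.315 CPM. These 3 groups did not overlap. Normoxic smooth muscle held 4.78, 3.97, 4.99 and 4.29 CPM, overlapping hypoxic osteoblast cultures at 3.99, 4.95 and 4.15 CPM. Normoxic chondrocyte libraries held 3.46, 3.8, 2.81 and 4.22 CPM, normoxic osteoblast libraries 0.699, 1.46, 1.63 and 0.545 CPM and hypoxic smooth muscle libraries 2.33, 0.898 and 1.02 CPM. The normoxic osteoblast libraries overlapped the normoxic proliferating ones. The normoxic rise from proliferating cultures was 3.47 ± 0.24 (SE, adjusted p = 2.24e-09) in smooth muscle, 3.14 ± 0.28 (SE, adjusted p = 5.94e-07) in chondrocytes and 1.39 ± 0.42 (SE, adjusted p = 0.0126) in osteoblasts. Under hypoxia, from a higher starting level, Itga2 rose by 1.10 ± 0.13 (SE, adjusted p = 5.51e-06) in chondrocytes, and the changes were -0.66 ± 0.17 (SE, adjusted p = 0.0028) in osteoblasts and -2.11 ± 0.36 (SE, adjusted p = 0.000248) in smooth muscle, both falls. The smooth muscle value was -3.38 with library size alone and -2.71 (adjusted p = 2.05e-05) without hypoxic smooth muscle replicate 1.

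Of the RGD-binding subunits, Itga5, the alpha chain of the fibronectin receptor, was well detected in every library. Proliferating libraries held 151, 154, 149 and 157 CPM under normoxia and 189, 181 and 180.3 CPM under hypoxia. Chondrocyte libraries held 782, 765, 714 and 769 CPM under normoxia and 898, 946 and 862 CPM under hypoxia. Osteoblast libraries held 317, 312, 305 and 399.6 CPM under normoxia and 877, 923 and 846 CPM under hypoxia, so that the hypoxic osteoblast libraries overlapped the hypoxic chondrocyte libraries while the normoxic ones lay apart from the normoxic chondrocyte libraries. Smooth muscle libraries were lowest, at 125, 118, 118 and 123 CPM under normoxia and 48.7, 42.999 and 52.2 CPM under hypoxia. The change from proliferating cultures was 2.38 ± 0.06 (SE, adjusted p = 9.08e-12) in normoxic and 2.29 ± 0.06 (SE, adjusted p = 3.22e-12) in hypoxic chondrocytes, and 1.18 ± 0.09 (SE, adjusted p = 1.52e-06) in normoxic and 2.26 ± 0.07 (SE, adjusted p = 1.65e-13) in hypoxic osteoblasts. In smooth muscle Itga5 fell at both oxygen levels, with changes of -0.28 ± 0.05 (SE, adjusted p = 6.74e-05) and -1.81 ± 0.09 (SE, adjusted p = 7.45e-09), the latter -3.09 with library size alone.

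Itga8, for alpha 8, known from mesenchyme and contractile cells, was highest in normoxic osteoblast libraries, at 1178, 1143, 1156 and 554 CPM. Normoxic smooth muscle libraries followed at 633, 635, 626 and 524 CPM, with replicate 4 of the osteoblast group falling inside their range. Hypoxic osteoblast libraries held 247, 197 and 146 CPM, apart from every normoxic osteoblast library. Chondrocyte libraries held 48.7, 55.5, 61.2 and 53.02 CPM under normoxia and 32.8, 34.3 and 37.04 CPM under hypoxia. Proliferating libraries held 12.9, 12.9, 12.1 and 21.1 CPM under normoxia and 9.43, 10.8 and 12.4 CPM under hypoxia, and hypoxic smooth muscle libraries, at 13.3, 15.3 and 12.7 CPM, overlapped the normoxic proliferating ones. The normoxic rise was 6.15 ± 0.32 (SE, adjusted p = 1.15e-07) in osteoblasts, 5.42 ± 0.20 (SE, adjusted p = 5.73e-09) in smooth muscle and 1.97 ± 0.17 (SE, adjusted p = 1.95e-06) in chondrocytes, and the hypoxic rise was 4.17 ± 0.21 (SE, adjusted p = 1.99e-07) in osteoblasts and 1.67 ± 0.11 (SE, adjusted p = 1.92e-08) in chondrocytes. In hypoxic smooth muscle the value was 0.46 ± 0.17 (SE, adjusted p = 0.0302). That call did not hold under other settings: library size alone gave -0.82 (adjusted p = 0.000729), the adjusted p was 0.114 with no filter and 0.275 with all 28 libraries in 1 fit, and it was 0.165, 0.105 and 0.0747 without hypoxic proliferating replicate 1, hypoxic proliferating replicate 2 and hypoxic smooth muscle replicate 2.

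Itgav, for alpha v, the partner of several beta subunits, had the smallest ratio of highest to lowest group mean among the alpha subunits, 5.2. Its group levels ran from 80.7 ± 8.01 CPM (SD, n = 3) in hypoxic smooth muscle and 139.8 ± 11.97 CPM (SD, n = 4) in normoxic proliferating cultures to 344 ± 19.03 CPM (SD, n = 4) in normoxic and 419.6 ± 19.2 CPM (SD, n = 3) in hypoxic chondrocyte cultures. Hypoxic proliferating cultures, at 281 ± 14.9 CPM (SD, n = 3), lay near hypoxic osteoblast cultures at 264 ± 44.7 CPM (SD, n = 3), and their libraries overlapped. Normoxic osteoblast (216 CPM) and normoxic smooth muscle cultures (217 CPM) overlapped as well. The normoxic rise was 1.37 ± 0.07 (SE, adjusted p = 4.07e-09) in chondrocytes, 0.68 ± 0.14 (SE, adjusted p = 0.00142) in osteoblasts and 0.68 ± 0.07 (SE, adjusted p = 2.37e-07) in smooth muscle. Under hypoxia Itgav rose by 0.57 ± 0.06 (SE, adjusted p = 3e-06) in chondrocytes and fell in smooth muscle, at -1.68 ± 0.09 (SE, adjusted p = 1.79e-08), or -2.95 with library size alone. In hypoxic osteoblasts it was not called, at -0.09 ± 0.10 (SE, adjusted p = 0.421). Scaling by library size alone gave -0.32 (adjusted p = 0.0136), leaving out hypoxic osteoblast replicate 1 gave -0.21 (adjusted p = 0.0373), and leaving out replicate 3 gave 0.04 (adjusted p = 0.623).

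Itgb1, the beta 1 subunit shared by the collagen receptors and by alpha 5 and alpha 8, had the highest level per kilobase of exon of the 10 members in every group. Proliferating libraries held 861, 893, 889.5 and 779.8 CPM under normoxia and 1103, 1059 and 1147 CPM under hypoxia. Hypoxic chondrocyte libraries were highest, at 2855, 3044 and 3070.0 CPM, above normoxic chondrocyte (2344, 2168, 2343 and 1899 CPM), normoxic osteoblast (2274, 2209.8, 2236 and 2109 CPM) and hypoxic osteoblast libraries (2122, 1972 and 1902 CPM). Normoxic smooth muscle libraries held 1269, 1285, 1309 and 1102 CPM and hypoxic smooth muscle libraries, the lowest, 591, 686 and 674 CPM. The chondrocyte and osteoblast groups held the upper range without overlap with the smooth muscle groups. The rise was 1.43 ± 0.08 (SE, adjusted p = 8.3e-09) in normoxic chondrocytes, 1.42 ± 0.06 (SE, adjusted p = 3.05e-08) in normoxic osteoblasts and 0.59 ± 0.06 (SE, adjusted p = 3.96e-07) in normoxic smooth muscle. Under hypoxia it was 1.43 ± 0.06 (SE, adjusted p = 2.45e-10) in chondrocytes and 0.85 ± 0.07 (SE, adjusted p = 1.48e-08) in osteoblasts, and smooth muscle fell, at -0.64 ± 0.07 (SE, adjusted p = 1.17e-05), or -1.92 with library size alone.

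Itgb5, which pairs with alpha v as a vitronectin receptor, was called higher in all 6 differentiation comparisons, but lower in hypoxic smooth muscle when libraries were scaled by size alone. From 38.1 to 44.8 CPM in normoxic proliferating libraries it reached 613 to 708 CPM in chondrocyte, 589.8 to 632 CPM in osteoblast and 324 to 342 CPM in smooth muscle libraries. From 63.7 to 79.5 CPM in hypoxic proliferating libraries it reached 594 to 642 CPM in chondrocyte, 437 to 512 CPM in osteoblast and 103 to 126 CPM in smooth muscle libraries. No differentiated library overlapped the proliferating libraries of its oxygen level. The normoxic changes were 4.03 ± 0.07, 3.92 ± 0.07 and 3.05 ± 0.06 (SE, adjusted p = 1.22e-15) in chondrocytes, osteoblasts and smooth muscle, with adjusted p = 8.65e-13 and 2.32e-10 for the first 2. The hypoxic changes were 3.05 ± 0.09 (SE, adjusted p = 8.17e-12) in chondrocytes, 2.70 ± 0.09 (SE, adjusted p = 1.11e-12) in osteoblasts and 0.76 ± 0.11 (SE, adjusted p = 6.37e-05) in smooth muscle. The last turned to -0.52 (adjusted p = 0.00166) under scaling by library size alone.

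Itgb3, for another beta subunit that pairs with alpha v, in a receptor of osteopontin and vitronectin, was a chondrocyte-high gene at both oxygen levels. Chondrocyte libraries held 157, 148, 152 and 138 CPM under normoxia and 125, 172 and 148 CPM under hypoxia, and these overlapped. Osteoblast libraries held 10.1, 12.4, 10.1 and 18.1 CPM and 23.7, 22.96 and 19.999 CPM, which did not overlap. Normoxic proliferating libraries held 1.21, 0.73, 0.729 and 0.84 CPM, hypoxic proliferating libraries 5.27, 4.78 and 5.1 CPM and normoxic smooth muscle libraries 6.74, 7.52, 5.43 and 5.54 CPM. Hypoxic smooth muscle libraries held 0.6, 0.399 and 0.185 CPM, from 14 reads in all. Every chondrocyte library was above every library of the other lineages. The rise from proliferating cultures was 7.51 ± 0.12 (SE, adjusted p = 6.35e-13), 3.91 ± 0.27 (SE, adjusted p = 5.35e-07) and 2.91 ± 0.21 (SE, adjusted p = 2.75e-09) in normoxic chondrocytes, osteoblasts and smooth muscle. Under hypoxia Itgb3 rose by 4.86 ± 0.13 (SE, adjusted p = 2.98e-11) in chondrocytes and 2.13 ± 0.12 (SE, adjusted p = 4.52e-10) in osteoblasts and fell in smooth muscle, at -3.50 ± 0.41 (SE, adjusted p = 1.34e-05).

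Most receptors were higher at 0.5% O2 in undifferentiated cells. In proliferating cultures 7 of 9 tested members were called higher at 0.5% O2 and 1 lower, among 33.1% and 32.3% of all tested genes, with a median of 0.86 against 0.01. Itga1 did not pass the filter. Itga2 rose by 4.09 ± 0.24 (SE, adjusted p = 6.02e-09), Itgb3 by 2.59 ± 0.22 (SE, adjusted p = 1.89e-07), Itgav by 1.06 ± 0.06 (SE, adjusted p = 5.86e-09) and Itgb5 by 0.86 ± 0.08 (SE, adjusted p = 3.98e-07). Itgb1 rose by 0.42 ± 0.05 (SE, adjusted p = 5.48e-06) and Itga5 by 0.32 ± 0.05 (SE, adjusted p = 3.17e-05). Itga11 was called (adjusted p = 2.31e-06) against the 2 normoxic reads, from 83 reads in the 3 hypoxic libraries. Itga10 fell, at -0.86 ± 0.33 (SE, adjusted p = 0.0362), but was not called with DESeq2 (adjusted p = 0.0578) or without normoxic replicate 2 (0.105) or 4 (0.0588) or any 1 of the hypoxic replicates (0.0529, 0.11 and 0.0838). Itga8 was -0.38 ± 0.20 (SE, adjusted p = 0.128), not called.

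In chondrocyte cultures 5 members were called higher and 2 lower, beside 10.4% and 11.8% of all genes, with a median of 0.24 against -0.01. Under scaling by library size alone, 31.8% of all calls of this comparison were higher in place of 46.9%. Itga2 rose by 2.04 ± 0.15 (SE, adjusted p = 4.87e-06), Itga11 by 0.84 ± 0.08 (SE, adjusted p = 4.55e-05) and Itgb1 by 0.44 ± 0.09 (SE, adjusted p = 0.0045), while Itga10 fell, at -1.75 ± 0.12 (SE, adjusted p = 3.91e-06), as did Itga8, at -0.66 ± 0.09 (SE, adjusted p = 0.00032). The rises of Itgav (0.28 ± 0.07, SE, adjusted p = 0.0129) and Itga5 (0.24 ± 0.07, SE, adjusted p = 0.0256) were small and did not hold throughout. For Itga5 the adjusted p was 0.112 with library size alone and 0.058, 0.0906, 0.107 and 0.0557 without normoxic replicates 2 and 3 and hypoxic replicates 2 and 3. For Itgav it was 0.06 with library size alone, 0.0991 with all 28 libraries in 1 fit, and 0.0604 and 0.0505 without hypoxic replicates 2 and 3. Itga1 (0.23 ± 0.12, SE, adjusted p = 0.212), Itgb3 (-0.02 ± 0.10, SE, adjusted p = 0.933) and Itgb5 (-0.09 ± 0.07, SE, adjusted p = 0.393) were not called.

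In osteoblast cultures the receptors moved in both directions with oxygen, 4 called higher and 2 lower, beside 27% and 27.3% of all genes, with a median of 0.27 against -0.03. Scaling by library size alone put 36.9% of all calls on the higher side in place of 49.6%, with the median of all genes at -0.19. Itga11 rose by 2.52 ± 0.27 (SE, adjusted p = 0.000147), Itga2 by 2.01 ± 0.36 (SE, adjusted p = 0.00134), Itga5 by 1.40 ± 0.11 (SE, adjusted p = 1.18e-05) and Itgb3 by 0.81 ± 0.20 (SE, adjusted p = 0.00879). Itga8 fell, at -2.36 ± 0.30 (SE, adjusted p = 0.00031), and Itgb5 fell, at -0.36 ± 0.09 (SE, adjusted p = 0.00686). The smooth muscle marker sum was also lower in hypoxic than in normoxic osteoblast cultures, without overlap. So were the neural crest (1820 to 1932 against 2103 to 3004 CPM) and chondrocyte sums (1492 to 1540 against 1816 to 3008 CPM). The adipocyte sum was higher, at 20.1 to 23.2 against 3.98 to 6.76 CPM, as were the low blood and platelet and epithelial sums. The part of these sums in the Itga8 value was not tested. The remaining 4 were not called: Itga1 (-0.25 ± 0.10, SE, adjusted p = 0.0508), Itga10 (0.25 ± 0.23, SE, adjusted p = 0.381), Itgav (0.29 ± 0.18, SE, adjusted p = 0.196) and Itgb1 (-0.14 ± 0.09, SE, adjusted p = 0.187). Itga1 was called lower with library size alone (-0.40, adjusted p = 0.00711), with at least 10 counts in every library (0.0401), with limma-voom (0.0452), and without normoxic replicate 4 (0.0188) or hypoxic replicate 1 (0.0211). Itgb1 was called with library size alone (0.0152) and without normoxic replicate 4 (0.0249). Itgav was called with all 28 libraries in 1 fit (0.0458).

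In smooth muscle cultures all 10 members were called lower at 0.5% O2, beside 40.2% of all genes (35.4% were higher), with a median of -2.18 against -0.12. The changes ran from -5.41 ± 0.29 (SE, adjusted p = 2.32e-10) for Itga1 and -5.40 ± 0.11 (SE, adjusted p = 9.16e-15) for Itga8 to -0.87 ± 0.08 (SE, adjusted p = 2.33e-07) for Itgb1. Itgb3 was at -3.88 ± 0.37 (SE, adjusted p = 1.94e-07), Itga10 at -3.29 ± 0.45 (SE, adjusted p = 9.82e-06), Itga11 at -2.79 ± 0.35 (SE, adjusted p = 3.31e-06) and Itga2 at -1.57 ± 0.34 (SE, adjusted p = 0.000697). Itgb5 (-1.49 ± 0.08), Itgav (-1.36 ± 0.09) and Itga5 (-1.27 ± 0.09) changed less. The hypoxic smooth muscle libraries held 15 reads of Itga1 in all, 51 of Itga2, 11 of Itga10, 47 of Itga11 and 14 of Itgb3. The sizes of these changes therefore rest on few reads. No hypoxic smooth muscle library overlapped a normoxic one for any member. These hypoxic libraries are the ones with 95.1 to 119 CPM of smooth muscle markers and 11.62 to 13.31% mitochondrial ribosomal RNA, whose part was not tested. Without the mitochondrial genes and Rn7sk in the table, all 10 were still called lower. Without hypoxic replicate 1 the value was -6.28 for Itga1, -2.18 for Itga2 and -3.70 for Itga11. Scaling by library size alone moved the median of all genes from -0.12 to -1.49, put 15.6% of calls on the higher side in place of 46.8%, and gave the members values from -6.77 (Itga8) to -2.24 (Itgb1).

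**Figure D3:**
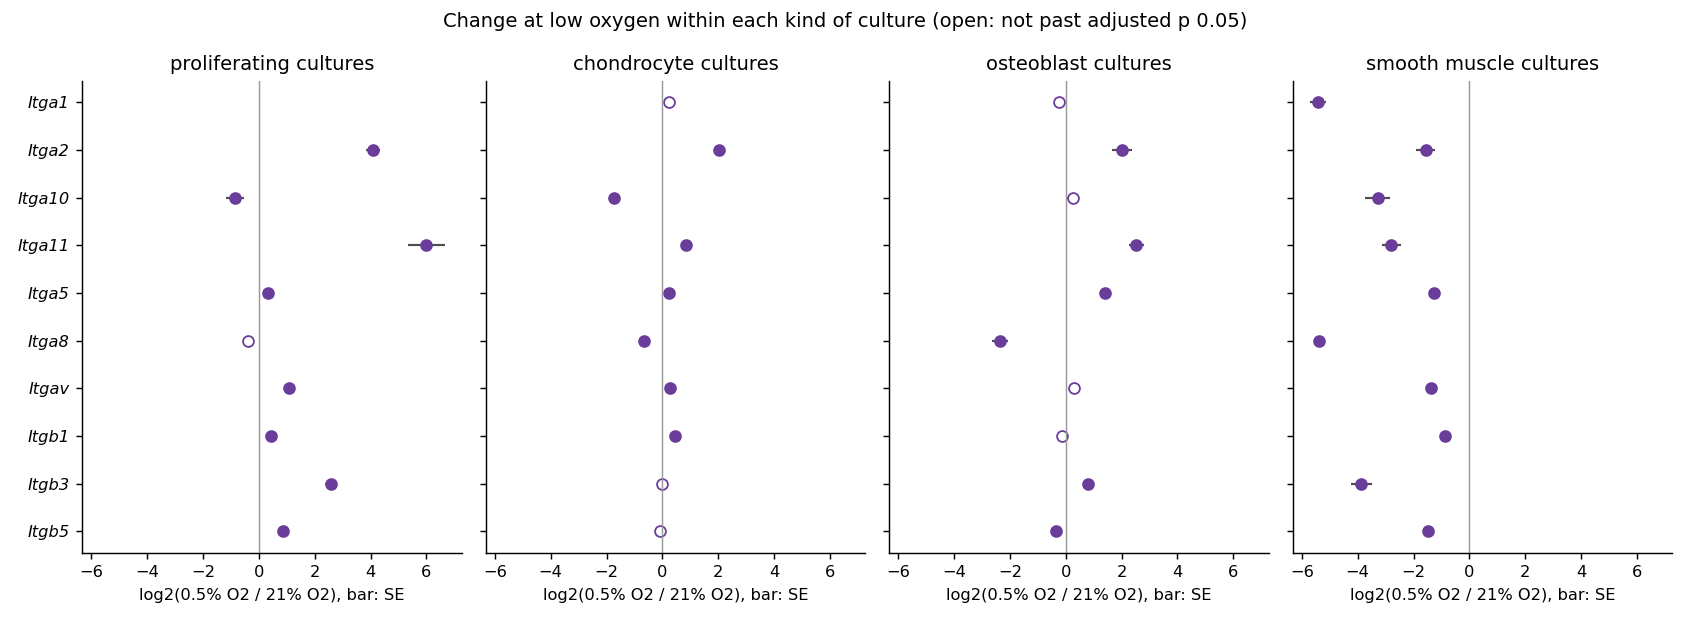
Log2 fold change of each integrin subunit at 0.5% O2 against 21% O2 within each of the 4 culture states, with bars of ± SE and open points where the test did not call the gene. Most members lie to the right of 0 in proliferating cultures, on both sides in chondrocyte and osteoblast cultures, and all 10 lie to the left of 0 in smooth muscle cultures; the proliferating Itga11 value rests on 2 normoxic reads.

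The chondrocyte and osteoblast cultures were also set against each other, since both began in the same medium. At 21% O2, 5 members were higher in chondrocytes and 3 in osteoblasts, beside 28.6% and 31.1% of all genes, with a median of 0.36 against -0.03. Library size alone put 34.3% of calls on the chondrocyte side in place of 48%, with the median of all genes at -0.19. Itga11 (4.86 ± 0.28, SE, adjusted p = 1.63e-06), Itgb3 (3.53 ± 0.19, SE, adjusted p = 9.03e-07), Itga2 (1.71 ± 0.35, SE, adjusted p = 0.00197), Itga5 (1.16 ± 0.10, SE, adjusted p = 9.12e-06) and Itgav (0.65 ± 0.14, SE, adjusted p = 0.00291) were the chondrocyte-high members. Itga8 (-4.23 ± 0.25, SE, adjusted p = 1.45e-06), Itga1 (-1.46 ± 0.11, SE, adjusted p = 3.55e-06) and Itga10 (-1.41 ± 0.21, SE, adjusted p = 0.00043) were the osteoblast-high members. Itgb1 (-0.03 ± 0.09, SE, adjusted p = 0.766) and Itgb5 (0.07 ± 0.07, SE, adjusted p = 0.421) were not called, and Itgb1 was 0.05 without normoxic chondrocyte replicate 4 and Itgb5 -0.09 with library size alone. At 0.5% O2, 6 were higher in chondrocytes and 3 in osteoblasts, beside 28.6% and 29% of all genes, with a median of 0.47 against 0.01. Itga11 (3.21 ± 0.09), Itgb3 (2.74 ± 0.12), Itga2 (1.77 ± 0.15), Itgav (0.67 ± 0.11), Itgb1 (0.59 ± 0.09) and Itgb5 (0.36 ± 0.09) were higher in chondrocytes. Itga10 (-3.37 ± 0.11), Itga8 (-2.50 ± 0.17) and Itga1 (-0.94 ± 0.11) were higher in osteoblasts, and Itga5 was not called (0.04 ± 0.08, SE, adjusted p = 0.723). Of the 7 alpha subunits, the same 3 were osteoblast-high at both oxygen levels.

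Whether oxygen altered the change with differentiation was tested as an interaction, the change from proliferating cultures at 0.5% O2 minus that at 21% O2. The 3 interactions share their proliferating libraries. A lower hypoxic change is a smaller step from the hypoxic proliferating cultures and need not mean a lower level at 0.5% O2. For chondrocytes 6 members were called with a lower hypoxic change, beside 21.9% of all genes on the lower side, with a median of -0.82 against -0.03. Itgb3 (-2.61 ± 0.19, SE, adjusted p = 1.83e-08), Itga2 (-2.03 ± 0.28, SE, adjusted p = 1.34e-05), Itgb5 (-0.94 ± 0.11, SE, adjusted p = 2.43e-06) and Itgav (-0.77 ± 0.10, SE, adjusted p = 6.49e-06) were among them. From normoxic to hypoxic proliferating cultures their mean levels went, in that order, from 0.877 to 5.05, 0.433 to 6.89, 42.01 to 73.6 and 139.8 to 281 CPM. In chondrocyte cultures they went from 149 to 148, 3.57 to 14.8, 651 to 613 and 344 to 419.6 CPM. None of these members was called lower with oxygen in chondrocytes. Itga11 was called (adjusted p = 1.51e-07) on its 2 normoxic proliferating reads. Itga10, at -0.86 ± 0.29 (adjusted p = 0.0235), was lost with limma-voom (adjusted p = 0.114), with all 28 libraries in 1 fit (0.103) and without hypoxic proliferating replicate 1 (0.1) or 3 (0.052). Itga1 (-0.54), Itga5 (-0.06), Itga8 (-0.27) and Itgb1 (0.03) were not called. Itga8 was called without normoxic proliferating replicate 4 (adjusted p = 0.00881), and Itga1 was 0.16 without normoxic proliferating replicate 2.

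For osteoblasts 7 members had a lower change under hypoxia and 2 a higher one, beside 25.3% and 28.9% of all genes, with a median of -1.09 against 0.0023. Itga2 (-2.01 ± 0.46, SE, adjusted p = 0.00156), Itga8 (-1.93 ± 0.40, SE, adjusted p = 0.0013), Itgb3 (-1.74 ± 0.30, SE, adjusted p = 0.000139), Itgb5 (-1.18 ± 0.12, SE, adjusted p = 7.56e-07), Itgav (-0.73 ± 0.20, SE, adjusted p = 0.00717) and Itgb1 (-0.52 ± 0.09, SE, adjusted p = 0.000221) had the lower change. Itga5 (1.12 ± 0.12, SE, adjusted p = 1.44e-06) had the higher. Itga10 (1.17 ± 0.43, SE, adjusted p = 0.0331) was also called higher, and lost with no filter (adjusted p = 0.0815), with limma-voom (0.288) and without normoxic proliferating replicate 2 (0.0851) or 4 (0.0634), hypoxic proliferating replicate 2 (0.0829) or 3 (0.0714), or hypoxic osteoblast replicate 1 (0.0503) or 2 (0.0532). Itga11 was called lower (adjusted p = 0.0133), and lost with limma-voom (0.0822) and without normoxic proliferating replicate 2 (0.0635). Itga1 was not called (-0.997 ± 0.73, SE, adjusted p = 0.267).

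For smooth muscle all 10 members had a lower hypoxic change, beside 35.5% of all genes, with a median of -3.69 against -0.04. The values ran from -6.42 ± 0.42 (SE, adjusted p = 8.8e-12) for Itgb3 and -5.60 ± 0.42 (SE, adjusted p = 9.97e-11) for Itga2 to -1.25 ± 0.10 (SE, adjusted p = 3.23e-10) for Itgb1, among the members other than Itga1 and Itga11, whose proliferating levels rest on 19 and 2 normoxic reads. Itga1 was at -6.15 ± 0.95 and ran from -7.02 without hypoxic smooth muscle replicate 1 to -5.46 without normoxic proliferating replicate 2. Itga2 was -6.21 without hypoxic smooth muscle replicate 1. Scaling by library size alone put 16.6% of all calls on the higher side in place of 49.6% and moved the median of all genes from -0.04 to -1.37, with values from -7.74 for Itgb3 to -2.59 for Itgb1 among those same members.

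**Figure D4:**
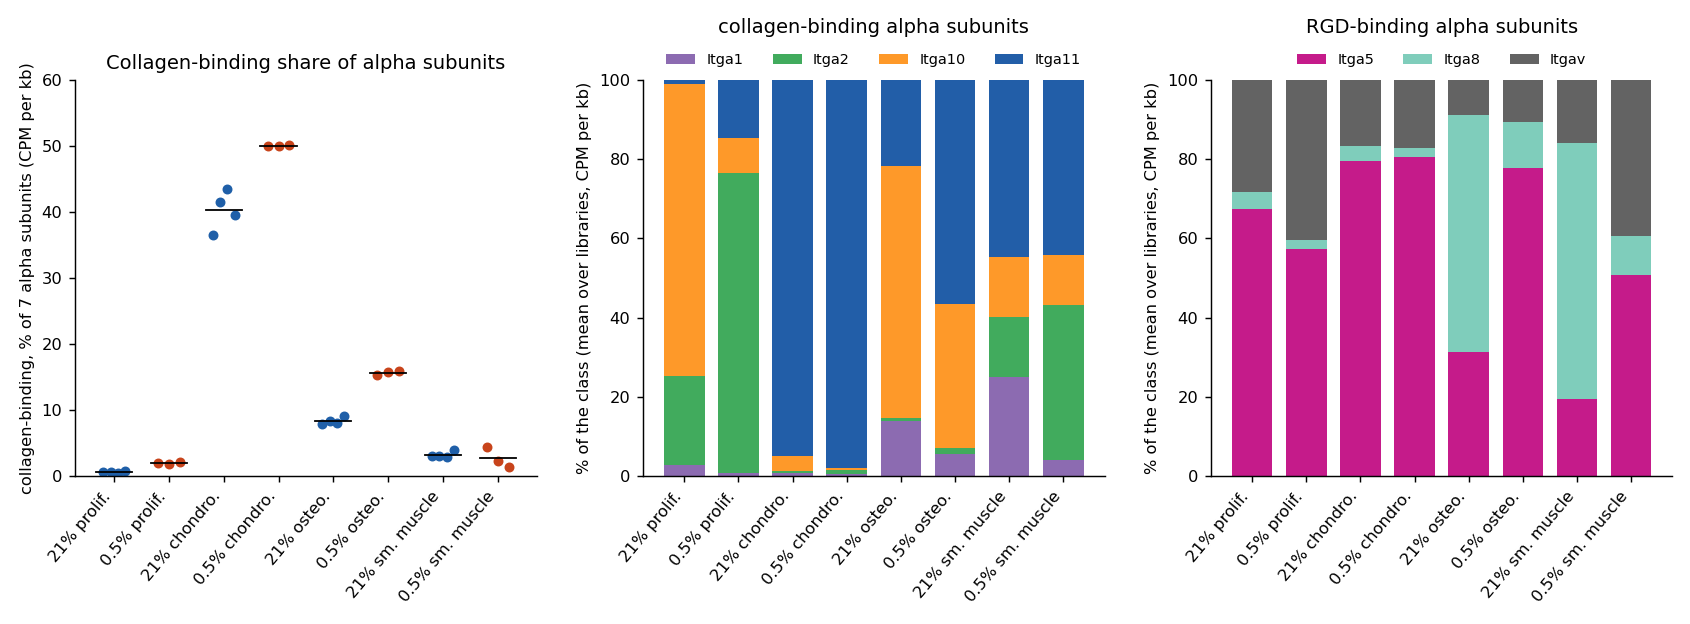
Composition of the receptors by CPM per kilobase: the share of the 7 alpha subunits held by the 4 collagen-binding ones in every library, and the make-up of the collagen-binding and RGD-binding alpha subunits in each of the 8 groups as stacked bars of mean shares that start at 0. Chondrocyte libraries hold 40.3% and 50.1% collagen-binding alpha subunits on average under normoxia and hypoxia, against at most 15.7% in the other groups, and Itga11 fills nearly the whole collagen-binding bar there.

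Levels of different genes were compared per kilobase of exon (the union of GENCODE M21 exons). On this scale the 4 collagen-binding subunits made up 0.616% ± 0.0872 (SD, n = 4) of the 7 alpha subunits in normoxic and 1.93% ± 0.125 (SD, n = 3) in hypoxic proliferating cultures. They made up 40.3% ± 2.98 (SD, n = 4) in normoxic and 50.1% ± 0.113 (SD, n = 3) in hypoxic chondrocyte cultures, 8.36% ± 0.556 (SD, n = 4) and 15.7% ± 0.376 (SD, n = 3) in osteoblast cultures, and 3.25% ± 0.497 (SD, n = 4) and 2.7% ± 1.57 (SD, n = 3) in smooth muscle cultures. Chondrocyte cultures were therefore the state in which collagen-binding alpha transcripts came near the RGD-binding ones. Itga11 accounted for 94.96% ± 0.148 (SD) of the collagen-binding sum in normoxic and 97.9% ± 0.141 in hypoxic chondrocytes. In normoxic osteoblasts Itga10 led with 63.7% ± 13.2, followed by Itga11 with 21.6% ± 12.1, and in hypoxic osteoblasts Itga11 led with 56.5% ± 1.08 and Itga10 held 36.5% ± 1.11. Proliferating cultures carried mostly Itga10 under normoxia (73.8% ± 10.7) and mostly Itga2 under hypoxia (75.6% ± 4.43). The normoxic osteoblast share of Itga11 was 39.6% in replicate 4 and 14 to 17.4% in the other 3 libraries. In normoxic smooth muscle Itga11 held 44.8% ± 3.19 and Itga1 24.99% ± 1.38. With the longest coding transcript as the length, added after the data were seen, these became 38.7% and 35.5%, and in normoxic osteoblasts Itga1 came second with 21.1% against 19.8% for Itga11.

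Among the RGD-binding subunits Itga5 led in proliferating (67.3% ± 1.37 normoxic, 57.4% ± 1.8 hypoxic) and chondrocyte cultures (79.6% ± 1.22 and 80.7% ± 0.686). In normoxic osteoblasts Itga8 held 59.7% ± 10.3 and Itga5 31.4% ± 10.8, whereas in hypoxic osteoblasts Itga5 held 77.8% ± 3.48 and Itga8 11.5% ± 2.31. Replicate 4 of the normoxic osteoblasts had Itga5 ahead, at 47.6% against 44.2% for Itga8, while the other 3 libraries held 64.5 to 65.1% Itga8. Normoxic smooth muscle was led by Itga8 with 64.7% ± 1.74, and hypoxic smooth muscle by Itga5 with 50.8% ± 1.08 and Itgav with 39.3% ± 1.05, an order that turned with the longest coding transcript as the length (Itgav 46.2%, Itga5 44.2%). The beta subunits were led by Itgb1 in every group, from 71.9% in the lowest to 94.6% in the highest group mean. Itgb5 held 5.33 to 24.7% and Itgb3 at most 3.4%, in normoxic chondrocytes. These shares are descriptions of transcripts and not of receptor pairs.

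The other integrin subunits, from lists of the pathway's remaining genes, moved in both directions. The counts of this and the following lists stand beside the shares of all genes called higher and lower in the same comparisons, given above (33.8 to 40.9% and 34.6 to 38.9% with differentiation). Of each list the called gene with the largest rise and fall is named among those with at least 10 counts per library on average. Among other alpha subunits, 2 of 6 tested rose and 4 fell in normoxic chondrocytes, 2 of 5 tested rose and 2 fell in osteoblasts and 3 of 5 tested rose and 2 fell in smooth muscle. Under hypoxia 2 of 6 tested rose and 4 fell in chondrocytes, 2 of 6 tested rose and 4 fell in osteoblasts and 2 of 5 tested rose and 2 fell in smooth muscle. List medians were -0.99, -0.07 and 0.62 under normoxia and -2.15, -0.95 and -0.73 under hypoxia, for chondrocytes, osteoblasts and smooth muscle. Itga6, for the alpha chain of laminin receptors, had the largest fall in all 6 comparisons, with changes of -4.45, -2.94 and -2.44 under normoxia and -4.24, -3.63 and -2.59 under hypoxia for chondrocytes, osteoblasts and smooth muscle. Itga9, for a receptor of tenascin C and osteopontin, rose by 4.16 in normoxic osteoblasts and 3.64 in normoxic smooth muscle. The osteoblast libraries ran from 10.07 to 60.8 CPM, and without replicate 4 the rise there was 3.03. Itga7, for another laminin receptor, rose by 1.97 in hypoxic smooth muscle. Itga4, a fibronectin and VCAM-1 receptor subunit, had the largest rise in chondrocyte cultures and in hypoxic osteoblasts, at no more than 4.41 CPM, from 11 reads in normoxic and 3 reads in hypoxic proliferating cultures. Among other beta subunits, 1 of 3 tested rose and 2 fell in normoxic chondrocytes, all 3 tested fell in osteoblasts and 1 of 3 tested rose and 1 fell in smooth muscle. Under hypoxia all 4 tested fell in chondrocytes, all 4 tested fell in osteoblasts and 2 of 4 tested rose in smooth muscle, where 3 of 4 fell with library size alone. The medians of this list, in the same order, were -2.46, -1.87, 0.16, -3.63, -2.11 and -0.07. Itgb7, a leukocyte integrin subunit, had the largest fall in the 3 normoxic comparisons (-5.27, -6.15 and -4.67) and, among genes above that count limit, in hypoxic chondrocytes (-4.19), where Itgb2, under the limit, had a fitted change of -7.18. In hypoxic smooth muscle Itgb7 was 1.05, and -0.24 with library size alone. Itgb4, the partner of alpha 6, rose in normoxic chondrocytes (0.87) and Itgb8, an alpha v partner, in normoxic smooth muscle (0.76), while Itgb2, of leukocyte integrins, fell in hypoxic osteoblasts (-3.03, and -3.91 without hypoxic osteoblast replicate 2).

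The collagen genes, ligands of the I domain subunits, were mostly higher in differentiated cultures other than hypoxic smooth muscle. In normoxic cultures all 13 tested rose in chondrocytes, all 13 tested rose in osteoblasts and all 12 tested rose in smooth muscle, with list medians of 4.08, 2.23 and 1.17 beside medians of all genes near 0 given above. In hypoxic cultures 10 of 12 tested rose and 2 fell in chondrocytes, 11 of 13 tested rose and 2 fell in osteoblasts and 3 of 11 tested rose and 7 fell in smooth muscle, with medians of 3.54, 2.32 and -1.51. With library size alone all 11 tested fell in hypoxic smooth muscle. Col2a1 had the largest rise of this list in both chondrocyte and both osteoblast comparisons. It stood at 1039 to 5879 CPM in normoxic and 194 to 372 CPM in hypoxic chondrocytes and at 35.6 to 776 CPM in normoxic (at most 43.6 CPM without replicate 4) and 69.99 to 72.1 CPM in hypoxic osteoblasts, from 0 to 0.07 and 0 to 0.0975 CPM in the proliferating cultures. Col4a1, of basement membrane collagen, fell in hypoxic chondrocytes (-0.96) and osteoblasts (-0.78), and Col1a1, of fibrillar collagen I, fell in hypoxic smooth muscle (-2.86). Col11a1, of a minor fibrillar collagen, had the largest rise in normoxic smooth muscle (8.42), and Col6a1, of the beaded filament collagen VI, in hypoxic smooth muscle (0.74, but -0.54 with library size alone). With oxygen alone, 8 of 11 tested rose at 0.5% O2 in proliferating cultures, 6 of 13 tested fell in chondrocytes, 5 of 13 tested rose and 4 fell in osteoblasts and 2 of 12 tested rose and 9 fell in smooth muscle.

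Of fibronectin and the other RGD ligands, 14 of 16 tested rose and 1 fell in normoxic chondrocytes, 15 of 17 tested rose and 2 fell in osteoblasts and 11 of 16 tested rose and 2 fell in smooth muscle. Under hypoxia 13 of 16 tested rose and 2 fell in chondrocytes, 14 of 17 tested rose and 2 fell in osteoblasts and 6 of 15 tested rose and 8 fell in smooth muscle, where 13 of 15 fell with library size alone. The medians of this list, in the same order, were 2.78, 3.40, 1.41, 1.68, 1.37 and -0.73. Ibsp, the bone sialoprotein, stood at 734 to 1914 CPM in normoxic chondrocytes, 457 to 811 CPM in hypoxic chondrocytes and 63.3 to 75.7 CPM in hypoxic osteoblasts, with 0 reads in proliferating cultures at either oxygen level. Egfl6, an RGD protein of basement membranes, stood at 170.3 to 493 CPM in normoxic osteoblasts and 411 to 446 CPM in normoxic smooth muscle, also from 0 reads. Nid1, for the basement membrane linker nidogen, fell in normoxic chondrocytes (-1.44), hypoxic chondrocytes (-1.99) and hypoxic osteoblasts (-1.18). Spp1, for osteopontin, fell in normoxic osteoblasts (-1.003) and smooth muscle (-1.64). In hypoxic smooth muscle Tnc, for tenascin C, fell (-2.68) and Postn, for periostin, rose (1.26, but -0.01 with library size alone). With oxygen alone, 9 of 15 tested rose and 1 fell at 0.5% O2 in proliferating cultures, 3 of 16 tested rose and 5 fell in chondrocytes, 8 of 17 tested rose and 6 fell in osteoblasts and 5 of 16 tested rose and 10 fell in smooth muscle. The collagen receptors outside the integrin family, Ddr1, Ddr2 and Mrc2, were also followed: 2 of 3 tested rose in normoxic chondrocytes, all 3 tested rose in osteoblasts and 2 of 3 tested rose in smooth muscle, and 2 of 3 tested rose, 2 of 3 tested rose and 1 fell and 1 of 3 tested rose and 2 fell in the hypoxic lineages, where library size alone gave 1 higher and 1 lower in chondrocytes and all 3 lower in smooth muscle. The medians of this list, in the same order, were 1.75, 1.87, 1.48, 0.42, 1.08 and -1.14. Ddr1, a collagen-activated kinase, had the largest rise in both chondrocyte (2.29 and 1.31) and both osteoblast comparisons (2.60 and 1.83). Mrc2, an endocytic collagen receptor, rose in normoxic smooth muscle (2.14) and in hypoxic smooth muscle (0.27, but -1.01 with library size alone, and not called without hypoxic proliferating replicate 2 or 3, adjusted p = 0.0515 and 0.0505). Ddr2, the fibrillar collagen kinase, fell in hypoxic smooth muscle (-1.86) and was -0.19 in hypoxic osteoblasts, a call lost without any 1 of the hypoxic proliferating replicates (adjusted p = 0.0594, 0.0547 and 0.0711) or hypoxic osteoblast replicate 2 (0.0796).

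Genes that act inside the cell were followed in 3 lists. Of integrin activators and adhesion adaptors, 15 of 21 tested rose and 4 fell in normoxic chondrocytes, 15 of 21 tested rose and 4 fell in osteoblasts and 14 of 21 tested rose and 5 fell in smooth muscle. Under hypoxia 13 of 21 tested rose and 4 fell in chondrocytes, 15 of 21 tested rose and 5 fell in osteoblasts and 6 of 21 tested rose and 9 fell in smooth muscle. With library size alone 9 rose and 6 fell in normoxic chondrocytes, 7 rose and 7 fell in hypoxic chondrocytes and 18 fell in hypoxic smooth muscle. List medians were 0.43, 0.86 and 0.62 under normoxia and 0.42, 0.55 and 0.01 under hypoxia, for chondrocytes, osteoblasts and smooth muscle. Lims2, a partner of integrin-linked kinase, had the largest rise of this list in all 6 comparisons, from 1.98 to 7.65, but was not called in hypoxic smooth muscle with library size alone (0.70) or without hypoxic proliferating replicate 1 (1.95, adjusted p = 0.0615) or 3 (1.82, 0.0799) or hypoxic smooth muscle replicate 3 (1.27, 0.129). Pxn, the adhesion scaffold paxillin, fell in normoxic (-1.02) and hypoxic chondrocytes (-1.20) and in hypoxic osteoblasts (-1.16). Parvb, for an actin-binding parvin, fell in normoxic osteoblasts (-2.94) and smooth muscle (-2.54), and Tns3, for a tensin, in hypoxic smooth muscle (-1.32). Of adhesion kinases and signalling genes, 5 of 15 tested rose and 5 fell in normoxic chondrocytes, 5 of 15 tested rose and 7 fell in osteoblasts and 4 of 15 tested rose and 7 fell in smooth muscle. Under hypoxia 5 of 15 tested rose and 3 fell in chondrocytes, 8 of 15 tested rose and 3 fell in osteoblasts and 1 of 15 tested rose and 12 fell in smooth muscle. With library size alone 3 rose and 11 fell in normoxic chondrocytes, 3 rose and 10 fell in hypoxic chondrocytes, 4 rose and 6 fell in hypoxic osteoblasts and all 15 fell in hypoxic smooth muscle. The medians of this list, in the same order, were 0.01, -0.02, -0.13, 0.10, 0.21 and -0.69. Nedd9, an adhesion docking protein, had the largest rise in the 3 normoxic comparisons (2.54, 3.16 and 1.98) and in hypoxic osteoblasts (1.90), and the largest fall in hypoxic smooth muscle (-2.70). The kinase gene Src fell in the 3 normoxic comparisons (-0.90, -1.32 and -0.94). The kinase gene Ptk2b fell in hypoxic chondrocytes (-0.84) and osteoblasts (-2.18), Fyn, for a Src-family kinase, rose in hypoxic chondrocytes (2.18), and Git1, for an adhesion scaffold, was 0.29 in hypoxic smooth muscle, -0.99 with library size alone, and not called without hypoxic proliferating replicate 1, 2 or 3 (adjusted p = 0.0976, 0.101 and 0.216) or hypoxic smooth muscle replicate 1 or 3 (0.196 and 0.119). Of genes of integrin inhibition and trafficking, 5 of 10 tested rose and 4 fell in normoxic chondrocytes, 5 of 10 tested rose and 2 fell in osteoblasts and 3 of 10 tested rose and 5 fell in smooth muscle, and 4 of 11 tested rose and 4 fell, 6 of 11 tested rose and 4 fell and 4 of 11 tested rose and 4 fell in the hypoxic lineages. The medians of this list, in the same order, were 0.05, 0.19, -0.08, -0.04, 0.26 and 0.03. With library size alone 3 rose and 5 fell in normoxic chondrocytes, 2 rose and 7 fell in hypoxic chondrocytes, 4 rose and 5 fell in hypoxic osteoblasts and 9 fell in hypoxic smooth muscle. The endocytic adaptor gene Numb rose in normoxic chondrocytes (0.66) and osteoblasts (1.14), where Rab11fip1, for a recycling effector, fell (-1.92 and -1.84). Dab2, for an integrin endocytosis adaptor, rose in normoxic smooth muscle (0.91), and Arf6, for a recycling GTPase, fell there (-1.41) and rose in hypoxic smooth muscle (2.11). Acap1, for an Arf6 regulator, fell in hypoxic chondrocytes (-3.95) and osteoblasts (-4.81, and -5.88 without hypoxic osteoblast replicate 2), where Rab21 (1.04), for an endosomal GTPase, and Itgb1bp1 (1.39), for a binder of the beta 1 tail, rose respectively, and Swap70 fell in hypoxic smooth muscle (-1.90).

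The genes whose pattern was most like each member were named by Pearson's r of log2(CPM + 1) over the 28 libraries, which share groups and scaling, among 13440 genes, as a description with no test. For the collagen-binding subunits they were Mgll (r = 0.98) and Fmod (r = 0.98) for Itga11, Plxna2 (r = 0.98) and Dpep1 (r = 0.98) for Itga10, Col8a2 (r = 0.99) and Otulinl (r = 0.99) for Itga1, and Arhgef10 (r = 0.85) and Kdm6b (r = 0.84) for Itga2. Fmod encodes fibromodulin, a collagen-binding proteoglycan, and Col8a2 a network collagen. The highest r of Itga2 was thus below those of the other members. Its group means ran from 0.433 to 14.8 CPM, where the added 1 CPM weighs more, and the part of this in r was not tested. For the RGD-binding subunits they were Ppfibp1 (r = 0.99) and Cdsn (r = 0.98) for Itga5, Slc24a3 (r = 0.99) and Aoc3 (r = 0.98) for Itga8 and Tnks (r = 0.95) and Tsku (r = 0.95) for Itgav. For the beta subunits they were St3gal5 (r = 0.97) and Nfe2l1 (r = 0.97) for Itgb1, Col5a1 (r = 0.98) and Lman1 (r = 0.98) for Itgb3 and Col12a1 (r = 0.99) and Adamts2 (r = 0.98) for Itgb5. Col5a1 encodes a chain of fibrillar collagen V, Col12a1 a collagen that associates with fibrils, and Adamts2 trims procollagen. Among the members themselves r was highest for Itga11 with Itgb3 (0.966) and Itga1 with Itgb5 (0.944), and lowest for Itga2 with Itga8 (-0.0333).

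The authors' deposited tables of their own comparisons held 98 of the member values computed here. All 87 of those called here had the same sign in the authors' deposited tables. The median absolute difference in log2 fold change from the authors' deposited tables was 0.016, and the largest, 0.324, was for Itga10 in hypoxic smooth muscle.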

How the data were processed

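PolyA RNA of 28 libraries was sequenced, and reads were handled with HISAT2 2.0.5, StringTie 1.3.3b and featureCounts 1.5.0-p3 on mm10, per the submitters' processing notes; the annotation release and the strand setting are not given in the sources used here. The authors deposited raw counts per gene for 54429 identifiers, of which 99 have no symbol, and 10 tables of their own comparisons, from which their log2 fold changes and their p-values, per the file headers, were read for the members. Another 70 normalised columns in these tables were not used. Libraries held 19.87 to 64.69 M counts. The members and the gene lists were chosen with earlier results of these data known.

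Counts were scaled with TMM and tested with edgeR 4.0.16 in R 4.3.3 (filterByExpr, quasi-likelihood F test, robust, Benjamini-Hochberg adjustment over all genes tested, called under 0.05), with the libraries of the pair in each of 12 pairwise comparisons and 4 groups in each of 3 interactions. The SE is the absolute log2 fold change divided by the square root of F. Levels are CPM with TMM factors over all 28 libraries. Alternatives were RLE scaling, library size alone, leaving out mitochondrial genes and Rn7sk, no filter, at least 10 counts in every library, limma-voom (limma 3.58.1), DESeq2 1.42.0, all 28 libraries in 1 fit, the replicate number as a block, and leaving out each library; a length from the longest coding transcript was added after seeing the data. The lists were also counted under the 3 other scalings and their named genes refitted without each library, both added after seeing the data. The script was tested on simulated data. Named genes were all members, the called gene with the largest rise and fall of each list in each differentiation comparison (at least 10 counts per library on average), and the 2 genes most like each member. By correlation over all genes, replicate numbers did not pair the libraries, but the members' share of counts was lowest in replicate 4 of every normoxic group. The replicate block kept only numbers shared by all groups of a fit, so its oxygen and interaction fits held no replicate 4. The labels give no batch.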

Additional observations from a re-analysis of the deposited data

Results flagged for a closer look

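In 7 of 40 groups of 4 libraries, 1 library lay far from the others of its group, where chance gives about 1 in 20. Normoxic osteoblast replicate 4 accounted for 4 of them: Itga10 stood at 39.1 CPM there against 75.6 to 81.1 in the other 3 libraries, Itga8 at 554 CPM against 1143 to 1178, Itgav at 151 CPM against 236 to 241, and Itga5 at 399.6 CPM against 305 to 317. Itga11 and Itgb3 were also highest in this library, at 34.8 CPM against 15.1 to 18.8 and 18.1 CPM against 10.1 to 12.4, as were Col2a1 (776 CPM against 35.6 to 43.6) and the chondrocyte marker sum (3008 CPM against 1816 to 1851), whose part was not tested. Itga1 stood at 57.6 CPM in normoxic osteoblast replicate 3 against 50.4 to 50.9 in the others. Itga8 also stood apart in replicate 4 of the normoxic proliferating cultures, at 21.1 CPM against 12.1 to 12.9, and of the normoxic smooth muscle cultures, at 524 CPM against 626 to 635. In normoxic osteoblasts the rises of the members were called with and without replicate 4.

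The change with differentiation differed between oxygen levels, by the test of the difference itself, for 25 values. For chondrocytes they were -2.03 for Itga2, -0.86 for Itga10, -5.13 for Itga11, -0.77 for Itgav, -2.61 for Itgb3 and -0.94 for Itgb5. For osteoblasts they were -2.01 for Itga2, 1.17 for Itga10, -3.42 for Itga11, 1.12 for Itga5, -1.93 for Itga8, -0.73 for Itgav, -0.52 for Itgb1, -1.74 for Itgb3 and -1.18 for Itgb5. For smooth muscle they were -6.15 for Itga1, -5.60 for Itga2, -2.39 for Itga10, -8.70 for Itga11, -1.55 for Itga5, -4.98 for Itga8, -2.38 for Itgav, -1.25 for Itgb1, -6.42 for Itgb3 and -2.32 for Itgb5. The fitted Itga11 values rest on 2 normoxic proliferating reads, so their size is not an estimate. The smooth muscle value of Itga1 rests on 19 normoxic and 17 hypoxic proliferating reads and 15 hypoxic smooth muscle reads. With limma-voom, Itga10 in chondrocytes and in osteoblasts and Itga11 in osteoblasts were not called (adjusted p = 0.114, 0.288 and 0.0822). All smooth muscle values use the hypoxic libraries with smooth muscle markers at the proliferating level. A negative value is a smaller change, not a lower level.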

How the results depend on the processing

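Scaling by library size alone reversed the hypoxic smooth muscle change of Itga11 (-0.67), Itga8 (-0.82) and Itgb5 (-0.52), the chondrocyte minus osteoblast difference of Itgb5 at 21% O2 (-0.0923) and that of Itga5 at 0.5% O2 (-0.0736). The interaction of Itgb1 in chondrocytes turned to -0.0095 with RLE scaling and with DESeq2, to -0.0017 with at least 10 counts in every library, and ran from -0.0287 without normoxic chondrocyte replicate 4 to 0.0742 with 1 library left out. Leaving out 1 library also reversed Itgav in hypoxic osteoblasts (-0.2079 to 0.0373, the latter without hypoxic osteoblast replicate 3), Itga11 in hypoxic smooth muscle (-0.26 to 0.94, the former without hypoxic smooth muscle replicate 1), Itgb3 with oxygen in chondrocytes (-0.1333 to 0.0952, the latter without hypoxic chondrocyte replicate 1), Itgb1 between chondrocytes and osteoblasts at 21% O2 (-0.0532 to 0.0484, the latter without normoxic chondrocyte replicate 4), Itga5 between them at 0.5% O2 (-0.0059 to 0.0733, the former without hypoxic osteoblast replicate 3) and the chondrocyte interaction of Itga1 (-1.20 to 0.16, the latter without normoxic proliferating replicate 2). Apart from Itga8 and Itgb5 in hypoxic smooth muscle, the reversed values were not called in the first place; the causes were not tested. With at least 10 counts in every library, 5 members were tested and called in place of 10 for smooth muscle with oxygen and for its interaction, because fewer genes pass that filter. Genes called with oxygen in chondrocytes numbered 3157, and 2091 to 3359 with 1 library left out, 2091 without hypoxic chondrocyte replicate 3.

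Over all genes, libraries of the same number did not deviate together (correlations from -0.177 to 0.081 over 40 pairs). The members' share of counts was nevertheless lowest in replicate 4 of every normoxic group. It was 0.1341% in proliferating, 0.4298% in chondrocyte, 0.4439% in osteoblast and 0.2983% in smooth muscle replicate 4. The hypoxic groups have no replicate 4 to set beside it. The fits with the replicate block also left out normoxic replicate 4 in the oxygen comparisons and interactions, so blocking and that removal cannot be told apart there. With this block, 2790 genes were called with oxygen in chondrocytes, Itga10 was lost with oxygen in proliferating cultures (adjusted p = 0.0978), and Itga1 (0.019) and Itgb1 (0.0382) in osteoblasts with oxygen and the chondrocyte interaction of Itga8 (-0.49, adjusted p = 0.00519) were called. Without normoxic replicate 4 and without a block, Itga1 and Itgb1 in osteoblasts were also called (0.0188 and 0.0249). Of 80 group levels, 6 moved by more than 1 SD with RLE scaling and 38 with library size alone. Depth limits Itga1, Itga2, Itga10, Itga11 and Itgb3 where a group holds under 100 reads.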
